A study of Mus musculus with 10 samples.

Results

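Laminins build the basement membrane and integrins hold cells to it, and 35 of their chains were followed here through sorted cells of the mouse mammary gland. They comprise 25 integrin chains, of which 17 are alpha and 8 are beta, and 10 laminin chains, out of 49671 genes in the count tables. The chains were chosen by gene symbol, by a rule that uses no measured value but was set with earlier results of these data known, and each symbol matched 1 Ensembl gene identifier in GENCODE M21. The list does not hold every chain of either family, and all 35 passed the low-count filter that left 19757 genes for testing.

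A laminin is a trimer of an alpha, a beta and a gamma chain, secreted into the basement membrane, where it polymerises into a sheet with collagen IV, nidogen and perlecan. An integrin is a dimer of an alpha and a beta chain that spans the plasma membrane, binds laminin, collagen, fibronectin or a counter-receptor outside the cell, and is tied to actin or keratin filaments inside it through adaptor proteins. In the mammary duct, contractile basal (myoepithelial) cells lie on the basement membrane and luminal cells line the lumen, so most luminal cells have little direct contact with the sheet.

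RNA was sequenced from 5 sorted populations with 2 libraries each. Tomato hybrid cells (THC), Tomato luminal cells (TLC) and Tomato basal cells (TBC) carry the treatment label of luminal ablation, and Tomato is a red fluorescent protein. Luminal cells (LC) and basal cells (BC) were given no treatment in the labels, which call only replicate 2 of either population WT. All populations share the tissue, mammary gland, and the sort after antibody staining. The labels give no mouse line, age, promoter or antibody, so each comparison of a Tomato population with LC or BC contrasts ablation and Tomato marking at once, and these cannot be told apart. Separate animals are nowhere stated for replicate libraries, so p-values measure the spread between these libraries only, which may be technical.

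Totals over genes ran from 2757773 counts in THC replicate 1 to 13685674 in LC replicate 2. In THC replicate 1, 43.0% of the reads had no unique alignment, against 14.6% to 22.4% in the other 9 libraries. The 6 basal marker genes summed to 4520.5 and 3754 CPM in THC, 1057 and 649.9 in TLC, 13639 and 10046 in TBC, 146 and 83.8 in LC and 7958 and 12096 in BC. The 9 luminal marker genes summed to 3728 and 2870.4 CPM in THC, 5121 and 4329 in TLC, 1036 and 725 in TBC, 8932 and 7315 in LC and 1332 and 1015 in BC. THC libraries thus held both sets of markers at intermediate levels, and the labels of the other 4 populations matched their lineage markers. Values per library are CPM, counts scaled to library size with TMM factors, with replicate 1 given before replicate 2. Log2 fold changes are from edgeR's quasi-likelihood fit over all 10 libraries, ± is their standard error, and a gene was called where its adjusted p (Benjamini-Hochberg, over all genes tested) was under 0.05. In bulk libraries of this kind, fewer cells of a type and less RNA per cell cannot be told apart.

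The 10 laminin chains together reached 2172 and 2160.4 CPM in THC, 1167 and 1033 in TLC, 4592 and 4576 in TBC, 956 and 1216 in LC and 3157 and 4247 in BC. The 25 integrin chains together reached 3081 and 2767 CPM in THC, 2314 and 1729 in TLC, 4640.2 and 4312 in TBC, 2494 and 2123 in LC and 3108 and 4225 in BC. Laminin totals were highest in both TBC libraries, and the 2 luminal populations, TLC and LC, did not overlap with the 2 basal ones or with THC. Integrin totals were also highest in TBC, while TLC overlapped with LC and the THC libraries lay between those 2 populations and BC. In the sorted luminal against the sorted basal cells, LC against BC, 1 chain was higher and 16 were lower, where 24.0% of all genes tested were called, 11.5% higher and 12.5% lower. The median log2 fold change was -0.80 over the 35 chains and -0.04 over all genes tested. In TLC against TBC, none was higher and 16 were lower, beside 13.6% of all genes (5.59% higher and 8.02% lower), and the medians were -0.94 and 0.03.

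**Figure D1:**
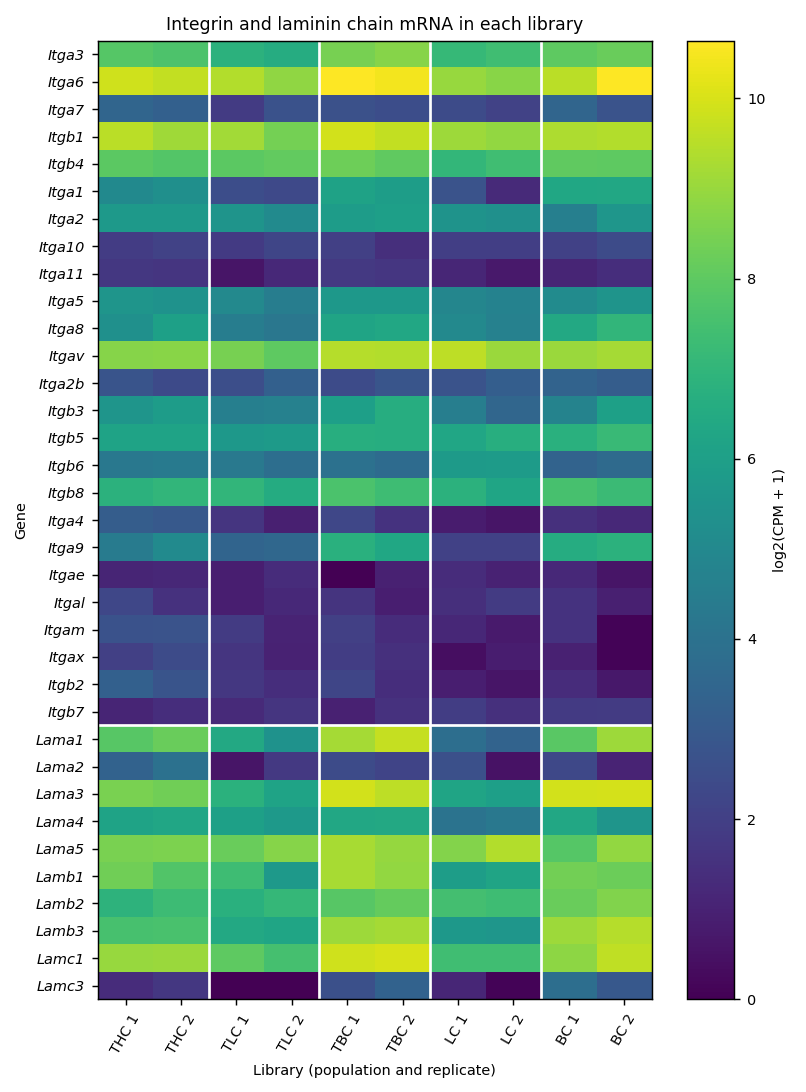
Heat map of the level of each of the 35 chains (rows, by role) in each of the 10 libraries (columns, grouped as THC, TLC, TBC, LC and BC), as log2(CPM + 1) in colour from dark (low) to yellow (high). Lama1, Lama3, Lamb1, Lamb3 and Lamc1 are brighter in TBC and BC than in TLC and LC, the Itgb6 row is brightest in the LC columns, and most leukocyte chains are dark throughout.

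Among the laminin alpha chains, Lama3 and Lama1 separated the lineages most. Lama3 encodes the alpha chain of the epithelial anchoring laminin, which joins the product of Lamb3 and holds hemidesmosomes. It measured 363 and 319 CPM in THC, 112 and 71.6 in TLC, 976 and 770.4 in TBC, 72.4 and 63.5 in LC, and 965 and 979 in BC. Both luminal populations lay far below both basal ones, and THC fell in the gap. Lama3 fell in LC against BC (log2 fold change -3.84 ± 0.29, adjusted p = 6.5e-06) and in TLC against TBC (log2 fold change -3.26 ± 0.28, adjusted p = 5.3e-05). Lama1, the alpha chain of the laminin of early embryonic basement membranes, measured 236 and 294 CPM in THC, 84.7 and 42.1 in TLC, 596 and 829 in TBC, 13.5 and 9.48 in LC, and 239 and 539.6 in BC. LC was lowest, TLC stood above it without overlap, and all THC, TBC and BC libraries were higher again. Lama1 fell in LC against BC (log2 fold change -5.09 ± 0.50, adjusted p = 5.9e-05) and in TLC against TBC (log2 fold change -3.50 ± 0.46, adjusted p = 0.00076), and it was higher in TLC than in LC (log2 fold change 2.46 ± 0.45, adjusted p = 0.0095). The last call was lost without TLC replicate 1 (adjusted p = 0.0754) and without LC replicate 2 (adjusted p = 0.0658).

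Lama4, the alpha chain of vessel walls and mesenchyme, measured 72.1 and 77.5 CPM in THC, 65.4 and 53.8 in TLC, 81.5 and 85.5 in TBC, 15.7 and 18.3 in LC, and 83.1 and 46.2 in BC. The 2 LC libraries stood apart below the other 8. It was lower in LC than in BC (log2 fold change -1.92 ± 0.27, adjusted p = 0.0004) and higher in TLC than in LC (log2 fold change 1.80 ± 0.27, adjusted p = 0.0028), while TLC against TBC was not called (log2 fold change -0.49 ± 0.26, adjusted p = 0.28). The 11 endothelial markers summed to 696 and 695 CPM in THC, 103 and 114 in TLC, 229 and 202 in TBC, 251 and 55.9 in LC and 465 and 121 in BC, and the 6 pericyte markers to 245 and 164 CPM in THC, 17.9 and 23.6 in TLC, 91.4 and 80.6 in TBC, 60.8 and 10.4 in LC and 156 and 69.7 in BC. Neither sum was higher in both TLC libraries than in both LC libraries, and no endothelial or pericyte marker was at 0 counts in a population. The 7 fibroblast markers summed to 843 and 1906 CPM in THC, 103 and 333 in TLC, 306 and 586 in TBC, 319 and 289.9 in LC and 294 and 239 in BC, where TLC and LC overlapped. Of these markers, Col1a1 and Col1a2 were higher and Dcn lower in TLC than in LC, and their part in the higher Lama4 was not tested. Lama5, the alpha chain found most widely in adult epithelia, measured 365 and 369 CPM in THC, 293 and 423 in TLC, 599 and 496 in TBC, 402 and 679.9 in LC, and 228 and 488 in BC. The LC range overlapped with those of TBC and BC, and Lama5 was not called in LC against BC (log2 fold change 0.59 ± 0.37, adjusted p = 0.29) or TLC against TBC (log2 fold change -0.61 ± 0.37, adjusted p = 0.34). Lama2, the laminin chain of muscle and nerve, was highest in THC, at 9.30 and 14.6 CPM, and at most 5.09 CPM in the other 8 libraries, with no call in any comparison.

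**Figure D2:**
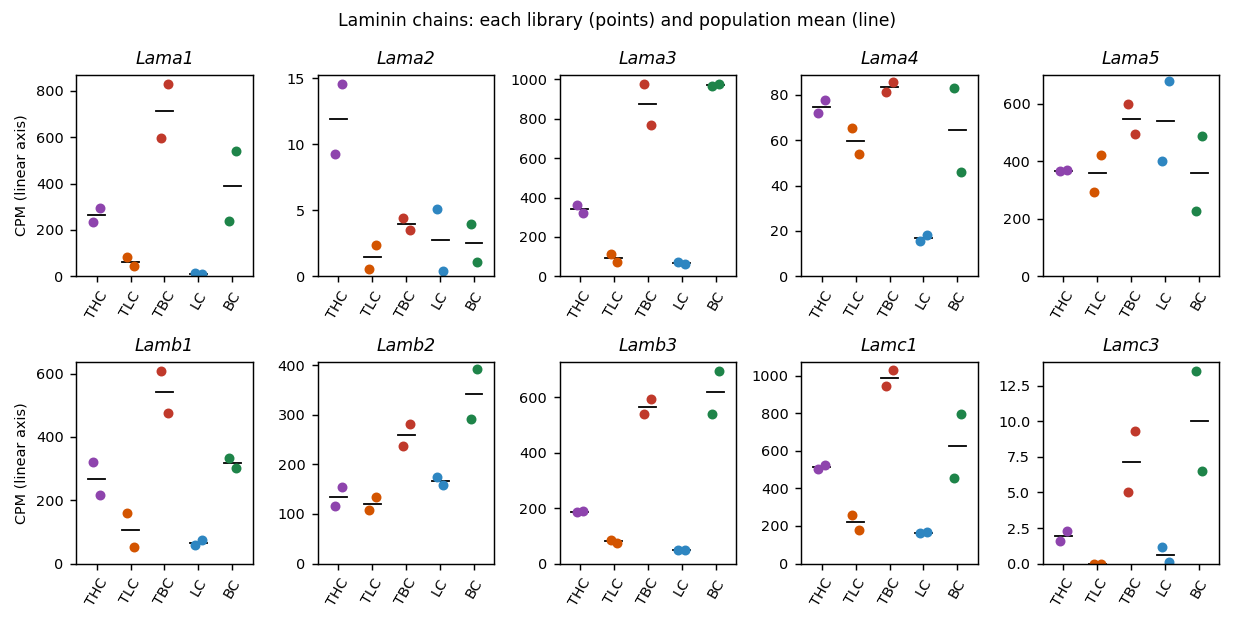
Level of each of the 10 laminin chains (panels) in the 5 populations, as CPM on a linear axis whose scale differs between panels, with 1 point per library and a line at the mean of the 2. Lama1, Lama3, Lamb1, Lamb3 and Lamc1 are lower in TLC and LC than in TBC and BC with THC between, Lama4 is low in LC only among the 5 populations, and Lama5 shows no such step.

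The alpha chains therefore made up different mixtures in the populations. On a per-length scale, CPM per kilobase of the union of a gene's exons, Lama5 held 33.2% and 32.5% of the summed level of the 5 alpha chains in the THC libraries, 51.1% and 70.4% in TLC, 24.8% and 20.9% in TBC, 78.3% and 87.6% in LC and 14.1% and 22.1% in BC. Lama3 held 34.9% and 29.7% in THC, 20.6% and 12.6% in TLC, 42.9% and 34.4% in TBC, 15% and 8.68% in LC and 63.4% and 47.1% in BC. Lama5 was thus the leading alpha chain in both libraries of LC and of TLC, and Lama3 in both libraries of BC. In THC and TBC, Lama3, Lama1 and Lama5 took more equal parts, and the leading chain differed between the 2 libraries of each. With the longest transcript as the length instead of the exon union, the mean Lama5 share was 30.4% in THC, 55.2% in TLC, 21.9% in TBC, 80.5% in LC and 17.4% in BC. These shares describe RNA and carry no test.

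**Figure D3:**
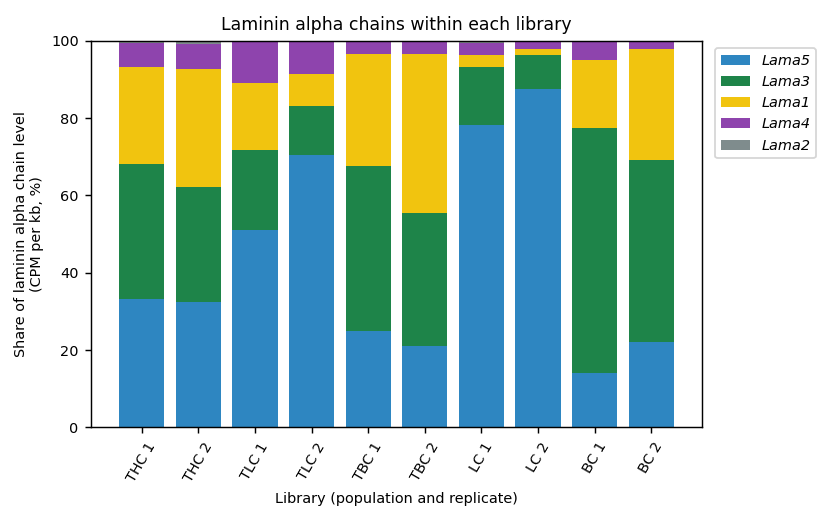
Share of the summed CPM per kilobase of the 5 laminin alpha chains held by each chain (stacked bars, percent, from 0 to 100), 1 bar per library, with THC, TLC, TBC, LC and BC from left to right. Lama5 fills 78.3% and 87.6% of the LC bars, 51.1% and 70.4% of the TLC bars and 14.1% and 22.1% of the BC bars.

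Beta and gamma chains showed the same division between lineages in their own values. Lamb3, the partner of the Lama3 product, measured 185 and 189 CPM in THC, 85.8 and 75.5 in TLC, 538 and 592 in TBC, 49.3 and 47.1 in LC, and 539.6 and 695 in BC. No luminal library reached the level of a THC library, and no THC library reached that of a basal one. It fell in LC against BC (log2 fold change -3.68 ± 0.24, adjusted p = 3.2e-06) and in TLC against TBC (log2 fold change -2.81 ± 0.23, adjusted p = 4.7e-05). Lamb1, the beta chain of most laminins made during development, measured 319.6 and 217 CPM in THC, 160.0 and 52.3 in TLC, 609.5 and 476 in TBC, 59 and 73.2 in LC, and 335 and 301 in BC. Its 2 TLC libraries enclosed those of LC, and all 4 were below the other 6. Lamb1 fell in LC against BC (log2 fold change -2.26 ± 0.45, adjusted p = 0.0042) and TLC against TBC (log2 fold change -2.36 ± 0.45, adjusted p = 0.0058). Lamb2, the beta chain of mature muscle, kidney and vessel membranes, measured 116 and 154 CPM in THC, 108 and 133 in TLC, 237 and 282 in TBC, 174 and 159 in LC, and 292 and 393 in BC. Its change between lineages was smaller than those of Lamb1 and Lamb3 (LC against BC, log2 fold change -1.04 ± 0.24, adjusted p = 0.0077, and TLC against TBC, log2 fold change -1.11 ± 0.24, adjusted p = 0.0093), and whether these changes differ between chains was not tested. The Lamb2 call in LC against BC was lost without BC replicate 2 (adjusted p = 0.076) or LC replicate 2 (adjusted p = 0.0546), and in TLC against TBC without TLC replicate 1 (adjusted p = 0.0722) or TBC replicate 2 (adjusted p = 0.0719).

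Lamc1, the gamma chain shared by most laminins, measured 505 and 523 CPM in THC, 259 and 179 in TLC, 945 and 1032 in TBC, 164 and 165 in LC, and 458 and 796 in BC. Both luminal populations were below all other libraries, with a log2 fold change of -1.93 ± 0.30, adjusted p = 0.00067 in LC against BC and -2.18 ± 0.30, adjusted p = 0.00067 in TLC against TBC. Lamc3, a less abundant gamma chain, had no count in either TLC library. It measured 1.55 and 2.29 CPM in THC, 5.05 and 9.31 in TBC, 1.19 and 0.0718 in LC and 13.5 and 6.55 in BC. With a floor of 3 counts over the 2 TLC libraries, Lamc3 was at least 44.3-fold lower in TLC than in TBC (adjusted p = 0.004), a call lost without TLC replicate 2 (adjusted p = 0.0507). The same floor makes it at least 2.88-fold lower in TLC than in LC, which was not called (adjusted p = 0.16). In LC against BC, Lamc3 fell by 4.09 on the log2 scale (standard error 0.87, adjusted p = 0.0071). In all, 8 of the 10 laminin chains were lower in LC than in BC and 7 were lower in TLC than in TBC, with none higher in either. Apart from Lamb2 and Lamc3 in the instances just given, these laminin calls between lineages stayed past the threshold in all 17 alternative analyses.

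The integrin alpha chains that bind laminin, Itga3, Itga6 and Itga7, pair with Itgb1, and Itga6 also pairs with Itgb4, whose long tail reaches keratin filaments in hemidesmosomes. The surface proteins of Itga6 and Itgb1 are widely used to sort mammary cells, and because the antibodies are not named in the labels, whether they took part in this sort is not given in the sources used here. Itga6 measured 949 and 811 CPM in THC, 678 and 467 in TLC, 1563 and 1408 in TBC, 506 and 430.2 in LC, and 743 and 1596 in BC. All 4 luminal libraries were below the other 6, and the 2 BC libraries were farther apart than those of any other population. Itga6 was lower in LC than in BC (log2 fold change -1.32 ± 0.35, adjusted p = 0.018) and in TLC than in TBC (log2 fold change -1.38 ± 0.35, adjusted p = 0.023). Itga3 measured 229 and 202 CPM in THC, 112 and 94.6 in TLC, 349 and 416 in TBC, 137 and 166 in LC, and 257 and 296 in BC. All 4 luminal libraries were again below the other 6. Itga3 fell in LC against BC (log2 fold change -0.86 ± 0.22, adjusted p = 0.013) and in TLC against TBC (log2 fold change -1.89 ± 0.22, adjusted p = 0.00024).

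In LC against BC, the Itga6 call was lost without BC replicate 2 (adjusted p = 0.222) or LC replicate 2 (adjusted p = 0.0953), and the Itga3 call without LC replicate 1 (adjusted p = 0.117) or BC replicate 2 (adjusted p = 0.0871). In TLC against TBC, the Itga6 call was lost without TBC replicate 1 (adjusted p = 0.0914), TBC replicate 2 (adjusted p = 0.0579) or TLC replicate 2 (adjusted p = 0.151). The Itga3 call in TLC against TBC stayed past the threshold in all 17 alternatives. Itgb1, the beta chain shared by most of these receptors, measured 746 and 555 CPM in THC, 575 and 342 in TLC, 952 and 806 in TBC, 547 and 478 in LC, and 637 and 684 in BC. It was not called in LC against BC (log2 fold change -0.37 ± 0.29, adjusted p = 0.41) or TLC against TBC (log2 fold change -0.94 ± 0.29, adjusted p = 0.053). In TLC against TBC, Itgb1 was called lower with upper-quartile factors, DESeq2, limma-voom and no low-count filter. Per kilobase of its exon union, Itgb1 had the highest level of the 25 integrin chains in each population, with means of 159 in THC, 112 in TLC, 215 in TBC, 126 in LC, 162 in BC CPM per kilobase. With the length of the longest transcript instead, Itga6 led in all populations except LC, so the order of these 2 chains depends on the length used. Itga7, better known from muscle, stayed between 2.63 and 10.2 CPM in the 10 libraries with no call in any comparison.

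Itgb4 gave a different pattern from its partner Itga6. It measured 249 and 223 CPM in THC, 248 and 269 in TLC, 311 and 262 in TBC, 131 and 167 in LC, and 266 and 253 in BC. The 2 LC libraries were below the other 8, and TLC overlapped with TBC and BC. It was lower in LC than in BC (log2 fold change -0.80 ± 0.21, adjusted p = 0.017), higher in TLC than in LC (log2 fold change 0.79 ± 0.21, adjusted p = 0.042), and not called in TLC against TBC (log2 fold change -0.15 ± 0.21, adjusted p = 0.72). Per kilobase, the level of Itgb4 over that of Itga6 was 0.338 and 0.354 in THC, 0.470 and 0.743 in TLC, 0.256 and 0.240 in TBC, 0.332 and 0.501 in LC and 0.461 and 0.204 in BC. The ratio was highest in TLC replicate 2 and lowest in BC replicate 2, and its order across libraries does not depend on the gene lengths used. The Itgb4 call in TLC against LC did not survive leaving out any 1 of the 10 libraries, with adjusted p from 0.0529 without BC replicate 1 to 0.265 without LC replicate 1. In LC against BC, it was lost without BC replicate 1 (adjusted p = 0.0666), LC replicate 1 (adjusted p = 0.159) or BC replicate 2 (adjusted p = 0.0598). Itgb4 also shares 537 bp of exon with a gene on the opposite strand, whose reads cannot be told apart without strand.

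Of the 4 collagen receptors, Itga1 was the only one called between lineages, and whether the 4 differ from one another was not tested. Itga1 binds collagen IV of the basement membrane among other collagens. It measured 32.5 and 38 CPM in THC, 4.74 and 4.09 in TLC, 68.5 and 60.5 in TBC, 5.64 and 1.44 in LC, and 80.2 and 83 in BC. The 4 luminal libraries reached at most 5.64 CPM and the other 6 at least 32.5 CPM. Itga1 was lower in LC than in BC (log2 fold change -4.58 ± 0.48, adjusted p = 7.3e-05) and in TLC than in TBC (log2 fold change -3.88 ± 0.47, adjusted p = 0.00041), and both calls stayed in all 17 alternatives. Itga2, a receptor for fibrillar collagen and also for laminin, lies next to Itga1 on chromosome 13, with 20995 bp between the 2 genes on GRCm38 (Itga2 at 114833081 to 114932100, Itga1 at 114953096 to 115101964). It measured 52.3 and 51.2 CPM in THC, 44.2 and 33.6 in TLC, 57.9 and 63 in TBC, 42.8 and 39.2 in LC, and 23.1 and 46.5 in BC. The ranges of LC and BC overlapped, and Itga2 was called neither in LC against BC (log2 fold change 0.22 ± 0.29, adjusted p = 0.65) nor in TLC against TBC (log2 fold change -0.64 ± 0.29, adjusted p = 0.19, unadjusted p = 0.0485). Itga10 and Itga11, collagen receptors of cartilage and fibroblasts, reached at most 4.34 CPM in any library, without a call. For Itga10, 1739 bp of exon are shared with a same-strand gene in the annotation, so that reads there may count for neither.

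Receptors for the arginine-glycine-aspartate motif of fibronectin, vitronectin and latent TGF-beta held the only chain that was called higher in LC than in BC. Itgb6, an epithelial beta chain that pairs with Itgav and releases active TGF-beta from its latent complex, measured 18.2 and 19.2 CPM in THC, 18.9 and 13.5 in TLC, 14.5 and 12.1 in TBC, 55.2 and 56.9 in LC, and 9.60 and 11.6 in BC. The 2 LC libraries stood far above the other 8, which ranged from 9.60 to 19.2 CPM. Itgb6 was higher in LC than in BC (log2 fold change 2.39 ± 0.26, adjusted p = 6.7e-05) and lower in TLC than in LC (log2 fold change -1.80 ± 0.25, adjusted p = 0.0021), and TLC against TBC was not called (log2 fold change 0.28 ± 0.26, adjusted p = 0.55). The first 2 of these calls stayed in all 17 alternatives. Among the beta chains that share Itgav (Itgb3, Itgb5, Itgb6 and Itgb8), the Itgb6 share of the summed level per kilobase was 6.30% and 6.15% in THC, 8.25% and 6.30% in TLC, 3.46% and 2.82% in TBC, 17.8% and 17.9% in LC and 2.55% and 2.43% in BC. Itgb5, a vitronectin receptor chain, held the largest share of these 4 in each library. Itgb1, which also pairs with Itgav, is not part of that sum.

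Itgav itself measured 418 and 426 CPM in THC, 347 and 253 in TLC, 701 and 689.7 in TBC, 770.1 and 521 in LC, and 519 and 582 in BC. TLC was lowest without overlap with LC or TBC, and LC replicate 1 was the highest of the 10 libraries. It was lower in TLC than in LC (log2 fold change -1.10 ± 0.26, adjusted p = 0.024) and in TLC than in TBC (log2 fold change -1.21 ± 0.26, adjusted p = 0.0093), and LC against BC was not called (log2 fold change 0.23 ± 0.26, adjusted p = 0.59). The call in TLC against LC was lost without LC replicate 1 (adjusted p = 0.172), TLC replicate 1 (adjusted p = 0.0513) or TLC replicate 2 (adjusted p = 0.12), and that in TLC against TBC without TLC replicate 2 (adjusted p = 0.0774). Itga8, whose partner is Itgb1 and whose ligand is nephronectin, measured 39.5 and 65.3 CPM in THC, 21.8 and 17.4 in TLC, 72.3 and 82.4 in TBC, 31.3 and 24.8 in LC, and 85.6 and 128 in BC. Luminal and basal libraries did not overlap, and Itga8 was lower in LC than in BC (log2 fold change -1.94 ± 0.29, adjusted p = 0.00054) and in TLC than in TBC (log2 fold change -1.99 ± 0.29, adjusted p = 0.0011), in all 17 alternatives. Itga8 shares 372 bp and Itgav 634 bp of exon with a counted gene on the opposite strand.

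Itgb3, a receptor chain known from platelets and vessels among other cells, measured 45.3 and 57.6 CPM in THC, 23 and 24.5 in TLC, 63.8 and 96.9 in TBC, 22.4 and 10.5 in LC, and 26.5 and 65.6 in BC. The fall in LC against BC (log2 fold change -1.51 ± 0.45, adjusted p = 0.037) was lost without BC replicate 2 (adjusted p = 0.333), LC replicate 2 (adjusted p = 0.179), and either THC or either TLC library (adjusted p from 0.0516 to 0.0677). In TLC against TBC it also fell (log2 fold change -1.76 ± 0.45, adjusted p = 0.029), and was lost without TLC replicate 1 (adjusted p = 0.156), TBC replicate 2 (adjusted p = 0.165) or TLC replicate 2 (adjusted p = 0.155). Itgb8, which also activates TGF-beta, measured 112 and 128 CPM in THC, 127 and 93.1 in TLC, 198 and 161 in TBC, 113 and 75.1 in LC, and 187 and 151 in BC and was lower in LC than in BC (log2 fold change -0.85 ± 0.25, adjusted p = 0.031), a call lost without BC replicate 1 (adjusted p = 0.151), BC replicate 2 (adjusted p = 0.0508) or LC replicate 2 (adjusted p = 0.206). Itga5, the classical fibronectin receptor chain, measured 45.3 and 42.3 CPM in THC, 31.6 and 22.1 in TLC, 50.4 and 50.5 in TBC, 28.7 and 25.5 in LC, and 33.7 and 44.5 in BC. It fell in TLC against TBC (log2 fold change -0.92 ± 0.24, adjusted p = 0.025), as did Itgb5 (log2 fold change -0.91 ± 0.21, adjusted p = 0.015). Itga5 was lost without TBC replicate 1 (adjusted p = 0.106), TBC replicate 2 (adjusted p = 0.0893) or TLC replicate 2 (adjusted p = 0.151), and Itgb5 without TBC replicate 1 (adjusted p = 0.0767), TLC replicate 1 (adjusted p = 0.0822) or TBC replicate 2 (adjusted p = 0.0613). Itga2b, the platelet partner of Itgb3, stayed between 4.18 and 9.60 CPM with no call, while the 6 megakaryocyte and platelet markers summed to at most 10.6 CPM in any library.

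Itga9, a receptor for tenascin C and other matrix ligands that pairs with Itgb1, was among the chains with the widest range. It measured 20.5 and 33.1 CPM in THC, 9.82 and 10.8 in TLC, 108 and 80.3 in TBC, 3.14 and 3.16 in LC, and 95.6 and 112 in BC. The populations followed one another without overlap, LC lowest, then TLC, then THC, then TBC and BC, which overlapped. Itga9 was lower in LC than in BC (log2 fold change -5.04 ± 0.30, adjusted p = 3e-06) and in TLC than in TBC (log2 fold change -3.18 ± 0.28, adjusted p = 5.3e-05), and higher in TLC than in LC (log2 fold change 1.71 ± 0.29, adjusted p = 0.0051). These 3 calls stayed in all 17 alternatives. Itga4, its relative on lymphocytes and other migrating cells, reached at most 7.75 CPM in any library and was called only in THC against LC and THC against BC.

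**Figure D4:**
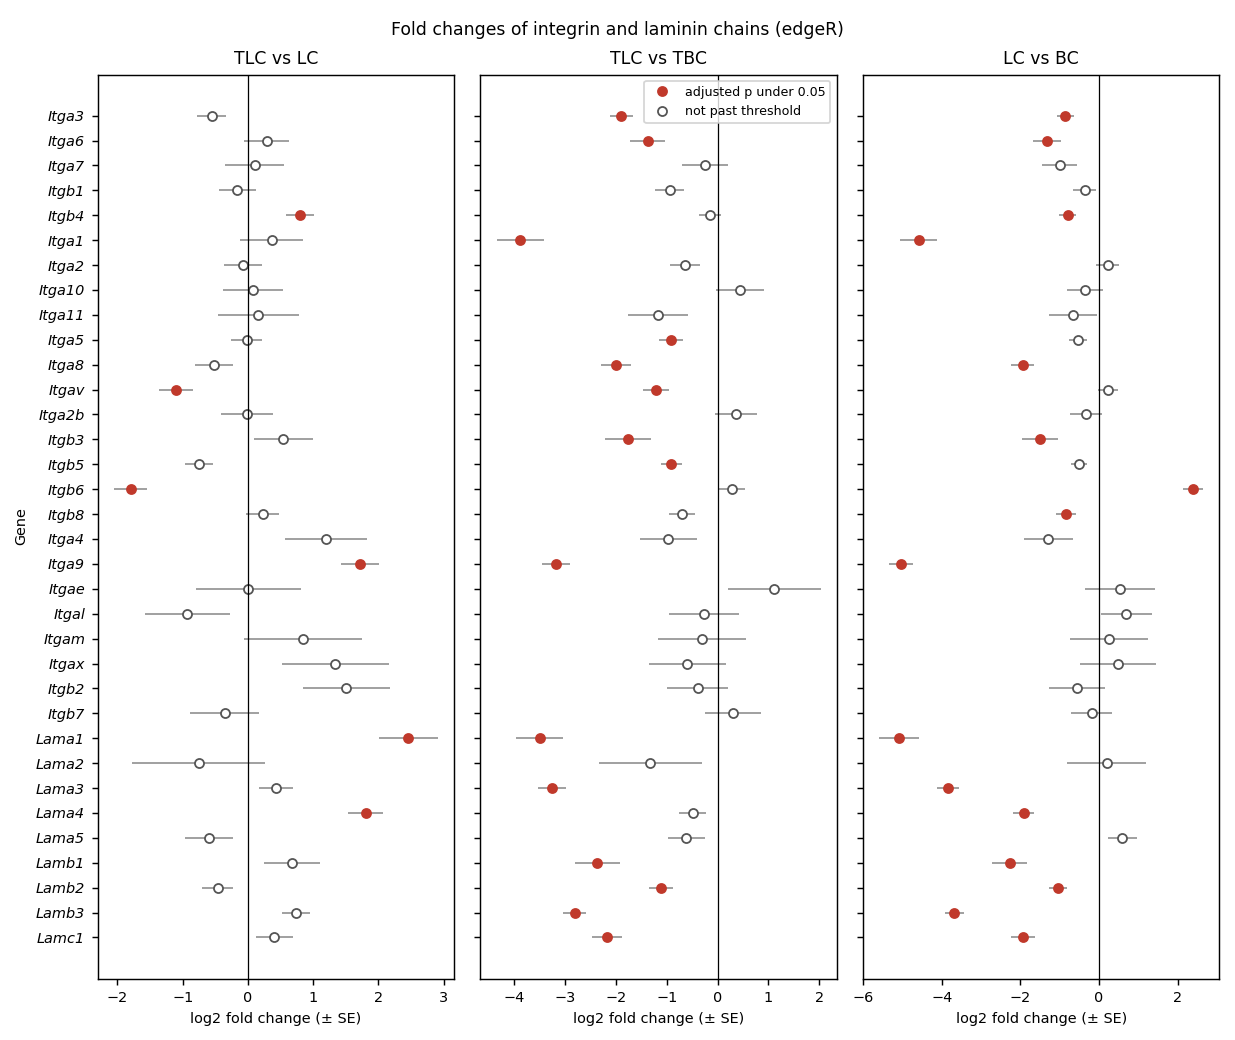
Log2 fold change of the chains in TLC against LC, TLC against TBC and LC against BC (panels from left to right), with bars of 1 standard error, filled where called. Lamc3 is left out because it has no count in TLC. In the 2 panels of luminal against basal cells nearly all filled points lie left of 0, with Itgb6 to the right in LC against BC, and in TLC against LC the filled points lie on both sides.

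Promoters are shown for 4 chains with contrasting patterns, Itgb6 as the chain highest in LC, Itga1 and Lamb3 as chains of the basal cells, and Lama5 as the laminin alpha chain without a step between lineages. Sequences are RefSeq's on build GRCm38.p6, from 250 bases before to 50 after a transcription start, 5′ to 3′ on the gene's own strand, with matches to the motifs searched in capitals. RefSeq start windows were found for 23 of the 35 chains, 26 windows in all.
Itgb6, chr2:60722554-60722853, minus strand: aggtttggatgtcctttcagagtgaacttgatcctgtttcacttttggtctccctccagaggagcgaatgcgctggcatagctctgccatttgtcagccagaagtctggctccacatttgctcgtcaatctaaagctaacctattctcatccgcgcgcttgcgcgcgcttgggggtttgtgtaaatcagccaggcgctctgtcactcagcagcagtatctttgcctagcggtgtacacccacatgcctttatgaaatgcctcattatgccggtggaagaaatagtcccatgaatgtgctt
Itga1, chr13:115101915-115102214, minus strand: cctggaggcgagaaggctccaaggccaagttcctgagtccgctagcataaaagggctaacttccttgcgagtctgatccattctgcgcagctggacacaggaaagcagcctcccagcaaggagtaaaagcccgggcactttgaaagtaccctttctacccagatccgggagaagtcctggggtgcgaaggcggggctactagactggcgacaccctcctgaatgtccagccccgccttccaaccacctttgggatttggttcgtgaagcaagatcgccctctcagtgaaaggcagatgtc
Lamb3, chr1:193301993-193302292, plus strand: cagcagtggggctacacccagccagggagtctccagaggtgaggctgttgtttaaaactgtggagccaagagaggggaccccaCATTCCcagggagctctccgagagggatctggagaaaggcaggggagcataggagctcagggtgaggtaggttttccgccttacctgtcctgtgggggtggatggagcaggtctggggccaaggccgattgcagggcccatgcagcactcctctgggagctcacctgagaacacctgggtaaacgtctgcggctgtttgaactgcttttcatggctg
Lama5, chr2:180225810-180226109, minus strand: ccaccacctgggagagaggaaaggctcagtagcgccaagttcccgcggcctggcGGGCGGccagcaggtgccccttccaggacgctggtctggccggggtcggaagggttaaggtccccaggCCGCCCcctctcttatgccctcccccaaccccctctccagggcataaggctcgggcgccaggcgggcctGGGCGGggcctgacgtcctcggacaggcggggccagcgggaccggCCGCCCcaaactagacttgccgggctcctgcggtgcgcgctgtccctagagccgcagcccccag
The motifs were read on both strands as letters alone, AP-1 as TGANTCA, TEAD as GGAATG, the GC box as GGGCGG and RUNX as TGTGGT, and no 2 of them overlap in the windows shown. The Lama5 window held 4 GC boxes, the Lamb3 window 1 TEAD match, and the Itgb6 and Itga1 windows none of the 4 motifs. Lamb3 and Itgb6 each have 1 further start window, not shown, and neither holds any of the 4 motifs. Over the 26 windows, GC boxes were found in 12, TEAD letters in 3, AP-1 in 3 and RUNX in 3, while of all 32851 windows 35.7% held a GC box, 14.7% TEAD, 7.81% AP-1 and 16.8% RUNX letters. These matches describe the sequence only.

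Between basal cells with and without the ablation label, no chain was called. In TBC against BC, 0 of 35 chains passed the threshold by edgeR, beside 0% of all genes tested. At an unadjusted p under 0.05 there were 3 of the 35 chains and 1725 of all 19757 genes tested, a similar share. DESeq2 and limma-voom called 0 chains and 203 and 0 of all genes. The 3 chains were Itga2 (0.78 ± 0.29, adjusted p = 0.5), Lamc1 (0.66 ± 0.29, adjusted p = 0.56) and Itgax (2.41 ± 0.90, adjusted p = 0.5), all with higher values in TBC. Over the 35 chains the median log2 fold change was 0.34, beside -0.03 over all genes. Lama1, for example, measured 596 and 829 CPM in TBC and 239 and 539.6 in BC without overlap (log2 fold change 0.87 ± 0.42, adjusted p = 0.59). With no low-count filter Lama1 was called (adjusted p = 0.039), and in no other alternative.

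Luminal cells with the ablation label differed from those without it in 6 chains. In TLC against LC, Itga9, Lama1, Lama4 and Itgb4 were higher and Itgb6 and Itgav lower, where 8.22% of all genes were called, 4.46% higher and 3.77% lower. The median log2 fold change was 0.11 over the chains and 0.00 over all genes. Itga9, Lama4 and Itgb6 stayed past the threshold in all 17 alternatives, and the losses of the other 3 are given with each chain above. The 6 basal markers summed to 1057 and 649.9 CPM in TLC, against 146 and 83.8 in LC, and 3 of the 6 were higher in TLC than in LC. The part of these markers in the higher Itga9 and Lama1 was not tested. Without TLC replicate 1 the count of 6 fell, and so did the count over all genes. Itgb5, lower in TLC (adjusted p = 0.0532), and Lamb3, higher (adjusted p = 0.0579), fell just short. DESeq2 and the fit with no low-count filter called both.

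Whether the difference between cells with and without the ablation label was itself different in the 2 lineages was tested as TLC against LC minus TBC against BC. This difference was called for Itgb6 (log2 fold change -2.11 ± 0.36, adjusted p = 0.024) and Itga9 (log2 fold change 1.86 ± 0.38, adjusted p = 0.048), 2 of 35 chains beside 0.911% of all genes. Itgb6 was lower in TLC than in LC, with values of 14.5 and 12.1 CPM in TBC against 9.60 and 11.6 in BC, where TBC lay just above BC. Itga9 was higher in TLC than in LC, with 108 and 80.3 CPM in TBC against 95.6 and 112 in BC, where the libraries overlapped. The call was lost for both chains without BC replicate 1 (adjusted p from 0.0701 to 0.0741), TBC replicate 1 (0.0996 to 0.1), BC replicate 2 (0.0502 to 0.133), LC replicate 2 (0.0592 to 0.154), TBC replicate 2 (0.0593 to 0.178) or TLC replicate 2 (0.0649 to 0.14). Itga9 was also lost without LC replicate 1 (adjusted p = 0.084) or TLC replicate 1 (adjusted p = 0.128) and by limma-voom (adjusted p = 0.122).

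Hybrid cells took an intermediate place for many chains. For 17 of the 35 chains (48.6%), both THC libraries lay between the TBC and the TLC libraries, while 13.5% of all genes tested did. These were 7 of the 10 laminin chains (Lama1, Lama3, Lama4, Lamb1, Lamb3, Lamc1 and Lamc3) and 10 of the 25 integrin chains (Itga1, Itga2, Itga3, Itga5, Itga6, Itga8, Itga9, Itgav, Itgb3 and Itgb5). The order rests on 2 libraries a population and carries no test. A gene can lie between only where the TBC and TLC libraries do not overlap. In TLC against TBC, 45.7% of the chains and 13.6% of all genes were called. The excess over all genes was not separated from that difference between lineages. For 6 chains (17.1%), Itga7, Itga4, Itgam, Itgax, Itgb2 and Lama2, both THC libraries lay above all TBC and TLC libraries, beside 7.37% of all genes, and for none did they lie below both, beside 4.17%. Against the midpoint of TBC and TLC, no chain was called by edgeR, while 0.380% of all genes were called higher. At an unadjusted p under 0.05 there were 5 of the 35 chains and 1702 of all 19757 genes tested. Those 5 were Itga4, Itgb2, Itga1, Lama2 and Itga7. DESeq2 and limma-voom also called 0 of the 35, beside 306 and 71 of all genes.

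In THC against TLC, 7 chains were higher and 0 lower, beside 1.61% of all genes (1.52% higher and 0.0911% lower). Lama3 (1.90 ± 0.27, adjusted p = 0.0073), Itga1 (3.02 ± 0.46, adjusted p = 0.013) and Lamb3 (1.21 ± 0.22, adjusted p = 0.021) had the smallest adjusted p, followed by Itga9, Itga8, Itga3 and Lama1, with log2 fold changes between 1.06 and 2.07. All 7 calls were lost without TLC replicate 2 (adjusted p from 0.125 to 0.321), and 6 of them, all but Lama3, without TLC replicate 1 (0.0909 to 0.16) or THC replicate 2 (0.102 to 0.319). Without THC replicate 1, Itga3, Lamb3 and Lama1 were lost (0.0778 to 0.177), and Itga3, Itga8 and Lama1 without TBC replicate 1 (0.0532 to 0.0735) or TBC replicate 2 (0.0658 to 0.0743). Lama1 was also lost in edgeR's fit with RLE factors (adjusted p = 0.0529). The count of 7 fell when any 1 library of THC, TLC or TBC was left out, and so did the count over all genes. Lamc3, with no count in TLC, was at least 12.2-fold higher in THC over the same floor of 3 counts, and was not called (adjusted p = 0.095).

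In THC against TBC, 0 chains were higher and 3 lower, beside 3.72% of all genes (2.57% higher and 1.14% lower). The 3 were Itga9 (-1.77 ± 0.26, adjusted p = 0.0049), Lamb3 (-1.60 ± 0.22, adjusted p = 0.0033) and Lama3 (-1.36 ± 0.26, adjusted p = 0.017). Lama3 was lost without TBC replicate 1 (adjusted p = 0.112), THC replicate 1 (adjusted p = 0.0865) or THC replicate 2 (adjusted p = 0.111), and the other 2 stayed in all 17 alternatives. The count of 3 rose without either BC library or LC replicate 2 and fell without TBC replicate 1 or either THC library. The count over all genes moved the same way in each of these fits. Without either TLC library the count of chains rose while that over all genes fell. Lamb2 (adjusted p = 0.0558) and Itga3 (adjusted p = 0.0609), both lower in THC, fell just short. DESeq2 and the fit with no low-count filter called both.

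In THC against LC, 12 chains were higher and 1 lower, beside 12.9% of all genes (8.91% higher and 4.0% lower). The higher ones held 6 laminin chains, with Lama1 (4.53 ± 0.49, adjusted p = 0.0004), Lama3 (2.33 ± 0.27, adjusted p = 0.00042) and Lama4 (2.14 ± 0.28, adjusted p = 0.0007) ahead of Lamb1, Lamb3 and Lamc1. They also held Itga9 (3.12 ± 0.29, adjusted p = 0.00011), Itga1 (3.38 ± 0.46, adjusted p = 0.0013), Itga4, Itgb2, Itgb3 and Itgax. The lower chain was Itgb6 (-1.58 ± 0.26, adjusted p = 0.0025). In this comparison 5 of 11 endothelial, 4 of 7 fibroblast and 2 of 5 pericyte markers tested were also higher and none lower. Their part in the higher chains, Lama4 among them, was not tested. Itga8, higher in THC, fell just short (adjusted p = 0.0557), and DESeq2 and limma-voom called it. Lamb1 was lost without LC replicate 1 (adjusted p = 0.0892), THC replicate 1 (adjusted p = 0.0873) or LC replicate 2 (adjusted p = 0.0668), and Itgb3 without any 1 of the THC, TLC and TBC libraries or LC replicate 2 (adjusted p from 0.052 to 0.207). In THC against BC, 2 chains were higher, Itga4 and Itgb2, and 5 lower, beside 7.71% of all genes (5.0% higher and 2.72% lower). The lower ones were Lamb3 (-1.73 ± 0.22, adjusted p = 0.0025), Itga9 (-1.92 ± 0.26, adjusted p = 0.003), Lama3 (-1.51 ± 0.26, adjusted p = 0.0079), Lamb2 (-1.34 ± 0.24, adjusted p = 0.009) and Itgb5 (-0.83 ± 0.21, adjusted p = 0.038). Itgb5 was lost without TBC replicate 1 (adjusted p = 0.0608), THC replicate 1 (adjusted p = 0.178), BC replicate 2 (adjusted p = 0.24) or THC replicate 2 (adjusted p = 0.131), Lamb2 without THC replicate 1 (adjusted p = 0.0835) or BC replicate 2 (adjusted p = 0.0724), and Lama3 without THC replicate 2 (adjusted p = 0.0571). The count of 7 fell without either THC library or BC replicate 2 and rose without LC replicate 1, and the count over all genes moved the same way. Without BC replicate 1 or TLC replicate 2 the count of chains rose while that over all genes fell. Itga8, lower in THC (adjusted p = 0.0523), and Itgax, higher (adjusted p = 0.0515), fell just short. DESeq2 and the fit with no low-count filter called both. The comparisons of THC share its 2 libraries with one another, and those against one population share that population too, so they are not separate evidence.

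Leukocyte integrins were scarce in all populations, and Itgb2, Itgam and Itgax were highest in THC, as was Itga4. Itgb2, the beta chain of the leukocyte integrins, measured 8.52 and 5.87 CPM in THC, 2.28 and 1.64 in TLC, 3.63 and 1.61 in TBC, 0.87 and 0.50 in LC, and 1.57 and 0.60 in BC. Both THC libraries exceeded the other 8. It was higher in THC than in BC (log2 fold change 2.82 ± 0.65, adjusted p = 0.025) and in LC (log2 fold change 3.37 ± 0.65, adjusted p = 0.0064). The Itgb2 call against BC was lost without THC replicate 1 (adjusted p = 0.0961), BC replicate 2 (adjusted p = 0.188) or THC replicate 2 (adjusted p = 0.0727), and the call against LC without LC replicate 2 (adjusted p = 0.0689). Itga4 measured 7.75 and 6.88 CPM in THC, 2.11 and 0.91 in TLC, 3.79 and 1.98 in TBC, 0.76 and 0.50 in LC, and 1.76 and 1.36 in BC, again with both THC libraries above all others, and was higher in THC than in LC (log2 fold change 3.53 ± 0.60, adjusted p = 0.0032) and in BC (log2 fold change 2.24 ± 0.56, adjusted p = 0.034). The Itga4 call against LC stayed in all 17 alternatives, and that against BC was lost without either THC library (adjusted p = 0.117 in both cases), either BC library (0.0953 and 0.202) or TBC replicate 2 (adjusted p = 0.0501). Itga4 shares 1124 bp of exon with a gene on the opposite strand.

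Itgam and Itgax, the alpha chains of myeloid cells, lie 11055 bp apart on chromosome 7. Itgam measured 5.42 and 5.60 CPM in THC, 2.63 and 1.09 in TLC, 3.0 and 1.54 in TBC, 1.30 and 0.72 in LC, and 1.96 and 0.0850 in BC and was called in no comparison, and 3450 bp of its exons are shared with a same-strand gene in the annotation, so that reads there may count for neither. Itgax measured 3.10 and 4.39 CPM in THC, 2.11 and 1.0 in TLC, 2.84 and 1.76 in TBC, 0.33 and 0.79 in LC, and 0.98 and 0.0850 in BC and was higher in THC than in LC (log2 fold change 2.71 ± 0.79, adjusted p = 0.044), a call lost with upper-quartile factors (adjusted p = 0.0545) and without any 1 of 7 libraries, namely LC replicate 1, LC replicate 2, TBC replicate 1, TBC replicate 2, THC replicate 1, THC replicate 2 or TLC replicate 2 (adjusted p from 0.0537 to 0.231). Itgal, Itgae and Itgb7, chains of lymphocytes, reached at most 3.87 CPM in any library, with no call, and for none of them were both THC libraries above the other 8. The 10 immune markers summed to 209 and 84.6 CPM in THC, 37.2 and 43.4 in TLC, 68.4 and 36.8 in TBC, 35.2 and 30.7 in LC and 59.2 and 27.8 in BC, and Ptprc, the pan-leukocyte marker, measured 22.1 and 12.1 CPM in THC and at most 5.49 elsewhere. The immune sum was thus highest in the 2 THC libraries, as were Itgb2, Itgam and Itgax, and the part of leukocytes in these values was not tested. The fibroblast list summed to 843 and 1906 CPM in THC and to at most 586 in any other library, and the endothelial list was also highest there.

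**Figure D5:**
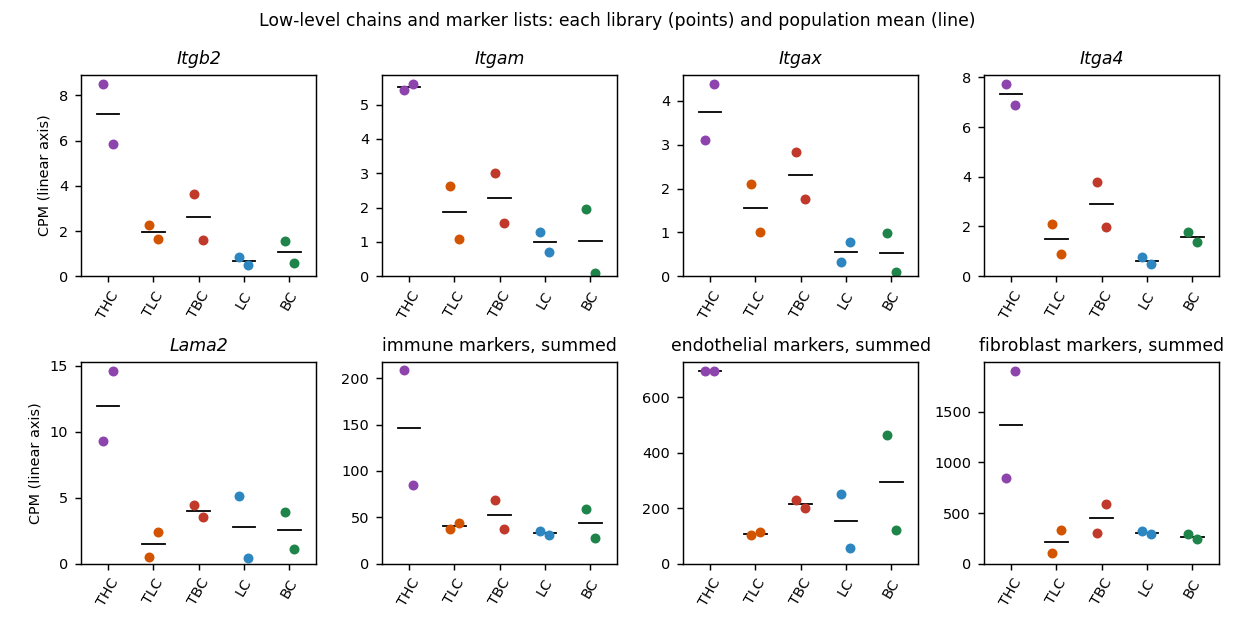
CPM of Itgb2, Itgam, Itgax, Itga4 and Lama2 and the summed CPM of the immune, endothelial and fibroblast marker lists (panels, linear axes) in the 5 populations, 1 point per library with a line at the mean. In each of the 8 panels both THC points lie above all others.

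Partners of laminin and integrins outside these families were counted from lists. Of 14 basement membrane partners, 0 were higher and 11 lower in LC than in BC, beside 11.5% and 12.5% of all genes, with a median log2 fold change of -2.58 against -0.04 over all genes. Hspg2, which encodes perlecan (-3.62 ± 0.30, adjusted p = 1.2e-05), Col18a1 (-4.41 ± 0.44, adjusted p = 6.2e-05) and Col4a6, a collagen IV chain (-2.06 ± 0.23, adjusted p = 7.4e-05), had the smallest adjusted p. In TLC against LC, 4 were higher and 0 lower, beside 4.46% and 3.77% of all genes. Col18a1, the source of endostatin, measured 81.9 and 34.6 CPM in TLC against 8.02 and 4.81 in LC (log2 fold change 3.19 ± 0.43, adjusted p = 0.0021), followed by Hspg2 (1.59 ± 0.28, adjusted p = 0.0062) and the collagen-binding Sparc (2.45 ± 0.52, adjusted p = 0.017). Hspg2 was lost without LC replicate 2 (adjusted p = 0.0528) and Sparc without TLC replicate 1 (adjusted p = 0.125), where the count of 4 fell to 2.

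Of 9 genes for hemidesmosomes and other laminin receptors, 0 were higher and 5 lower in LC than in BC (median -0.83, with 12.5% of all genes lower), and in TLC against LC 2 were higher and 0 lower, where 4.46% of all genes were higher. Those 2 were Col17a1, the transmembrane collagen of hemidesmosomes, at 223 and 85.9 CPM in TLC against 16 and 12.8 in LC (log2 fold change 3.42 ± 0.46, adjusted p = 0.002), and Sgcb, a sarcoglycan of the dystrophin complex, at 26.3 and 20.2 CPM in TLC against 5.42 and 6.10 in LC (log2 fold change 2.0 ± 0.30, adjusted p = 0.0025). The TLC and LC libraries did not overlap for either gene, and both calls stayed in all 17 alternatives. Of 18 integrin adaptors, 1 was higher and 10 lower in LC than in BC, beside 11.5% and 12.5% of all genes (median -0.88; 6 called without BC replicate 2 and 7 without LC replicate 2), among them Ilk, the integrin-linked pseudokinase (-1.69 ± 0.22, adjusted p = 0.00019), and Fermt1, an epithelial kindlin (-1.87 ± 0.28, adjusted p = 0.00058). In TLC against LC, 4 adaptors were higher and 0 lower, led by Tln2, a talin (1.09 ± 0.20, adjusted p = 0.0068). The count of 4 fell when any 1 library was left out, and 2 of the 4 were lost in each of these 10 fits. All 4 were lost without LC replicate 1, Tln2 among them (log2 fold change 0.93), so an adaptor called in that fit was another gene. In THC against LC, 8 of 14 basement membrane partners, 3 of 9 laminin receptor genes and 6 of 18 adaptors were higher and none lower, beside 8.91% of all genes higher. In the same comparison 4 of 7 fibroblast, 5 of 11 endothelial and 2 of 5 pericyte markers tested were higher and none lower, and their part in these counts was not tested. The adaptor count was 3 without THC replicate 1, and 4 without THC replicate 2 or LC replicate 2, and the laminin receptor count 2 without THC replicate 1 or LC replicate 2.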

How the data were processed

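Each library is a table of raw counts with 1 row an Ensembl gene, made by the authors with STAR and HTSeq on GRCm38 (mm10), per the submitters' processing notes, and deposited without normalization. RNA came from cells sorted by FACS and was extracted with RNeasy Micro, with libraries by Ovation Solo and sequencing on a NovaSeq, per the labels' protocols. Versions, gene annotation and strand option of the counting are unknown here, and antisense genes cannot be told apart. Of the 35 chains, 9 share exon sequence with another counted gene, 2 of them on the same strand.

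HTSeq's summary rows were left out of library sizes, and symbols were taken from GENCODE M21. The test was edgeR 4.0.16 (R 4.3.3), a robust quasi-likelihood F-test in a model of all 10 libraries by population, with TMM factors and filterByExpr, over 19757 genes, at a common dispersion of 0.0715 and 5 residual degrees of freedom. It was tested on simulated data first. The standard error is the absolute log2 fold change over the square root of F. CPM uses TMM factors, and CPM per kilobase the union of a gene's exons. The deeper a library, the smaller its counting error, and THC replicate 1 has the fewest counts.

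The 17 alternatives were RLE and upper-quartile factors, DESeq2 1.42.0, limma-voom (limma 3.58.1), no low-count filter, a filter at 5 CPM, the library number set as a block, and leaving out each of the 10 libraries. All 35 chains are named. From each list of related genes, up to 3 called genes per comparison with the smallest adjusted p are named. The chains, the lists and the tests were chosen with earlier results of these data known, so their counts are descriptions.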

Additional observations from a re-analysis of the deposited data

Results flagged for a closer look

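In 2 chains the difference between cells with and without the ablation label was itself different in luminal and in basal cells, by the test of TLC against LC minus TBC against BC. For Itgb6 this value was -2.108 on the log2 scale (adjusted p = 0.024), with -1.80 ± 0.25 in TLC against LC and 0.31 ± 0.26 in TBC against BC. For Itga9 it was 1.863 (adjusted p = 0.048), with 1.71 ± 0.29 in TLC against LC and -0.15 ± 0.25 in TBC against BC. Both TLC libraries lay on one side of both LC libraries for each chain, which restates the values behind the calls. Neither call stayed past the threshold in all 17 alternatives. That of Itgb6 was kept in 11 of them and that of Itga9 in 8, with losses when single libraries were left out.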

How the results depend on the processing

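The 35 chains in 10 comparisons gave 5890 values under the 17 alternatives, of which 5611 kept their side of the threshold, 133 fell short of it and 146 newly passed it. No called value changed sign. All 17 alternatives kept 11 of 17 calls in LC against BC, 9 of 16 in TLC against TBC, 3 of 6 in TLC against LC, 9 of 13 in THC against LC, 2 of 7 in THC against BC, 2 of 3 in THC against TBC, and none of the 7 in THC against TLC or of the 2 in the difference between lineages. Counts of called chains moved by over 1.5 times as follows. DESeq2 called 11 in THC against BC (7 in edgeR), 7 in THC against TBC (3), 12 in THC against TLC (7) and 4 in the difference between lineages (2), where limma-voom called 1. Over all genes DESeq2 called 2186, 1374, 782 and 505 in the same order, against 1524, 734, 318 and 180 in edgeR. In the difference between lineages limma-voom called 129 of all genes. With no low-count filter the counts were 1 in TBC against BC (Lama1), 13 in THC against BC, 12 in THC against TBC, 13 in THC against TLC, 6 in the difference between lineages and 3 against the midpoint of TBC and TLC. Over all genes they were 398, 2707, 1839, 1143, 725 and 709 in the same order, against 0, 1524, 734, 318, 180 and 75 with the filter. Leaving out 1 library gave 12 to 17 in LC against BC, 11 to 16 in TLC against TBC, 0 in TBC against BC, 3 to 6 in TLC against LC, 3 to 12 in THC against BC, 9 to 15 in THC against LC, 2 to 6 in THC against TBC, 0 to 9 in THC against TLC, 0 to 2 in the difference between lineages and 0 to 1 against the midpoint. Such a fit leaves a lone library that is assumed to vary like the other populations, and counts over all genes moved in these fits as well. Library numbers fall into a first and a second set, and set against set the deviations of same-set libraries correlated from -0.0124 to 0.421. Not all were over 0.1, so the main model did not pair the samples by number. This rule cannot show that the libraries of a set share no effect. With that set as a replicate block, counts were 6 in THC against TBC and 2 against the midpoint, and in the others stayed within 1.5 times. Over all genes the block gave 1510 in THC against TBC and 329 against the midpoint, against 734 and 75 without it. Under the block, Itgb3 passed the threshold neither in LC against BC (adjusted p = 0.0699) nor in THC against LC (adjusted p = 0.0629), nor did Lama1 in THC against TLC (adjusted p = 0.0847). The causes of these moves were not tested. Chains of a few CPM, such as Itgam and Itgax, rest on few counts in THC replicate 1, the shallowest library.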

Other observations

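Matrix ligands of integrins, many of which bind through the arginine-glycine-aspartate motif, were counted from a list of 12. In TLC against LC, 3 were higher (Fn1, Tnc and Thbs1) and 0 lower, beside 4.46% and 3.77% of all genes. Tnc and Thbs1 were both lost without TLC replicate 1 (log2 fold changes 4.08 and 1.535) and without LC replicate 2 (3.627 and 1.58). Fn1, which encodes fibronectin, measured 289 and 280.4 CPM in THC, 82.1 and 51.8 in TLC, 179 and 71 in TBC, 7.80 and 6.96 in LC, and 15.9 and 24.3 in BC. All 6 Tomato libraries exceeded the 4 of LC and BC. The summed fibroblast markers were also highest in both THC libraries, and of the 7 markers 2 were higher and 1 lower in TLC than in LC. Their part in the levels of these ligands was not tested. Fn1 was higher in TLC than in LC (log2 fold change 3.18 ± 0.44, adjusted p = 0.0025), a call kept in all 17 alternatives, and in THC than in BC (log2 fold change 3.81 ± 0.44, adjusted p = 0.0025). Tnc, which encodes tenascin C, a ligand of the Itga9 product, measured 523 and 159 CPM in THC, 217 and 202 in TLC, 362 and 103 in TBC, 17 and 7.11 in LC, and 11.4 and 7.99 in BC, and was higher in TLC than in LC (log2 fold change 4.14 ± 0.79, adjusted p = 0.017) with losses in 5 alternatives (adjusted p up to 0.142), 4 of them without a TLC or an LC library. Npnt, which encodes nephronectin, the ligand of the Itga8 product, ran against its receptor chain. It measured 22.5 and 19.6 CPM in THC, 42.8 and 55.4 in TLC, 6.47 and 5.50 in TBC, 28.3 and 32.4 in LC, and 2.74 and 5.44 in BC. The luminal libraries were highest and the basal ones lowest, with higher values in LC than in BC (log2 fold change 2.82 ± 0.33, adjusted p = 9.8e-05) and in TLC than in TBC (log2 fold change 3.05 ± 0.32, adjusted p = 0.00013), where Itga8 was lower in both. Ccn2, a matrix protein that binds several integrins, measured 282 and 232 CPM in THC, 60.3 and 46.6 in TLC, 881 and 705 in TBC, 46 and 29.5 in LC, and 861 and 952 in BC and was lower in LC than in BC (log2 fold change -4.59 ± 0.31, adjusted p = 4.1e-06).

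Of 6 counter-receptors of leukocyte integrins tested, 3 were called in LC against BC, beside 24% of all genes. Cdh1, which encodes E-cadherin, the ligand of the Itgae and Itgb7 dimer, was higher in LC than in BC (log2 fold change 2.01 ± 0.27, adjusted p = 0.0003), while Vcam1, a ligand of the Itga4 product (-3.35 ± 0.59, adjusted p = 0.003), and Icam1, a ligand of the Itgb2 dimers (-1.71 ± 0.36, adjusted p = 0.0054), were lower.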
